A study of Mus musculus with 6 samples.

Results

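Neuropeptide precursors are the proteins from which the peptide transmitters of the striatum are cut. The precursor genes described here are Penk, Pdyn, Tac1, Sst, Npy and Cck, and their members on the array were all probe sets whose annotation names 1 of these genes and no other. They came to 9 of 12422 probe sets, for 6 of 8251 genes: 3 for Penk (here called bright, middle and dim by their mean level), 2 for Pdyn (brighter and dimmer) and 1 each for Tac1, Sst, Npy and Cck. Striatal RNA had been hybridised to Affymetrix mouse arrays, 1 array for each of 6 mice. The wild-type group held 3 littermates (mice 4, 5 and 6) and the mutant group 3 Hdh4/Q80 mice (mice 7, 8 and 9), all C57BL/6 females aged 12 months with no treatment given in the labels. In Hdh4/Q80 animals the CAG repeat of the mouse huntingtin gene is expanded. The labels call them transgenic, name no separate promoter and leave their zygosity unstated. The comparison asks whether the messages differ in level between mutant and littermate striatum. Values are log2 expression as made by robust multi-array average (RMA), where a step of 1 is a doubling.

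Each precursor is a long protein that convertases and carboxypeptidase E cut into short peptides inside dense-core vesicles, which release them on strong stimulation. Spiny projection neurons, the striatum's main cell class, divide by peptide: those of the indirect pathway make Penk (enkephalins), and those of the direct pathway make Tac1 (substance P and neurokinin A) and Pdyn (dynorphins). Sst (somatostatin) and Npy (neuropeptide Y) are made together in a sparse class of interneurons that also holds Nos1, the neuronal nitric oxide synthase. Cck (cholecystokinin) is abundant in the cerebral cortex, which sends axons into the striatum. Loss of Penk message, and later of Tac1 message, is a known feature of Huntington's disease and of several of its mouse models, while the somatostatin and neuropeptide Y interneurons are known to be spared.

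Transcription of several of these genes is raised by cyclic AMP through the factor CREB, whose palindromic site was first described in the somatostatin promoter. The letters upstream of 4 precursors are shown because Sst, Npy and Cck had the highest Pearson r among the precursors over all 6 mice (by rho, and without mutant mouse 8, Penk with Tac1 was higher), and Tac1 had coefficients near or below 0 with all 3. The sequences are RefSeq's (GRCm38.p6), 250 bases ending just before the annotated start of the gene, written 5′ to 3′ on the gene's strand. Of the 6 genes 5 were in the sequence table; Penk was not. The capitals mark TGACGTCA, the full palindrome, and CGTCA, its core, searched on both strands (as TGACG on the other strand); a full palindrome contains the core on each strand.
Sst: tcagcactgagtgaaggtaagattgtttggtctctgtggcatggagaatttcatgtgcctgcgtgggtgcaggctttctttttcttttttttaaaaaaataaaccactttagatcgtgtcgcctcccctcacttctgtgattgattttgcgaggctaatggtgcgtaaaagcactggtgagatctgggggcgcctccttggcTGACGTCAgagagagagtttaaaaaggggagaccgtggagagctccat
Cck: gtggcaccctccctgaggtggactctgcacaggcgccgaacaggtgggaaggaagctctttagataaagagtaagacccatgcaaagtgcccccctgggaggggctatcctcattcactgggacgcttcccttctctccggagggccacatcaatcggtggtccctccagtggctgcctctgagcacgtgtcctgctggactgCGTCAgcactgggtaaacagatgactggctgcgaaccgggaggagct
Tac1: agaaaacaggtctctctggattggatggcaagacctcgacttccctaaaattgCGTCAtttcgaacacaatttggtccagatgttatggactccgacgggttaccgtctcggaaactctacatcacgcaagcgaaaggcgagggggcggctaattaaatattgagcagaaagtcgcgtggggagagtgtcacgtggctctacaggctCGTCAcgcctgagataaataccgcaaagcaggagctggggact
Npy: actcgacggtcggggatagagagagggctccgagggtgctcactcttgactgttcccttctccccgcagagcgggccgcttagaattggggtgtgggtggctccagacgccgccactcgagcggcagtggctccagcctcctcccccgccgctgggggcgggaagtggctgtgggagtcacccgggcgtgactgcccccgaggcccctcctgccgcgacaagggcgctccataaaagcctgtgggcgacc
The Sst stretch lies at chr16:23890845-23891094 (minus strand), that of Cck at chr9:121495695-121495944 (minus strand), that of Tac1 at chr6:7554811-7555060 (plus strand) and that of Npy at chr6:49822460-49822709 (plus strand). Sst held the full palindrome, beginning 48 bases before the start, as do 1.55% of 32851 such stretches. Cck held 1 core match, 47 bases before its start, and Tac1 held 2, at 197 and 43 bases. The core is common, in 17.8% of all stretches. Neither Npy nor the pair of Pdyn stretches in the table held these letters. The search says nothing of whether a factor was bound in these mice.

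For none of the 6 precursors did the difference between Hdh4/Q80 and wild-type striatum pass the test, which sets it against the spread between mice. Of the 9 probe sets 0 passed limma's moderated test at an adjusted p under 0.05 (Benjamini-Hochberg over 12422 probe sets), where 0% of all probe sets did, and their adjusted p-values ran from 0.857 to 0.989. At an unadjusted p under 0.05 the count was again 0 of 9 (the smallest, for Sst, was 0.129), against 5.1% of all probe sets (2.9% higher and 2.21% lower). In all 9 the mutant and wild-type ranges overlapped; they did not overlap for 11.7% of all probe sets (6.67% higher and 5.05% lower in Hdh4/Q80). The difference was above 0 for 3 and below 0 for 6, with a median of -0.07 against -0.0027 over all probe sets. For every probe set but that of Cck the 95% interval reached no farther than 1.40-fold in either direction, on the RMA scale, which compresses the changes of very bright and very dim probe sets.

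**Figure D1:**
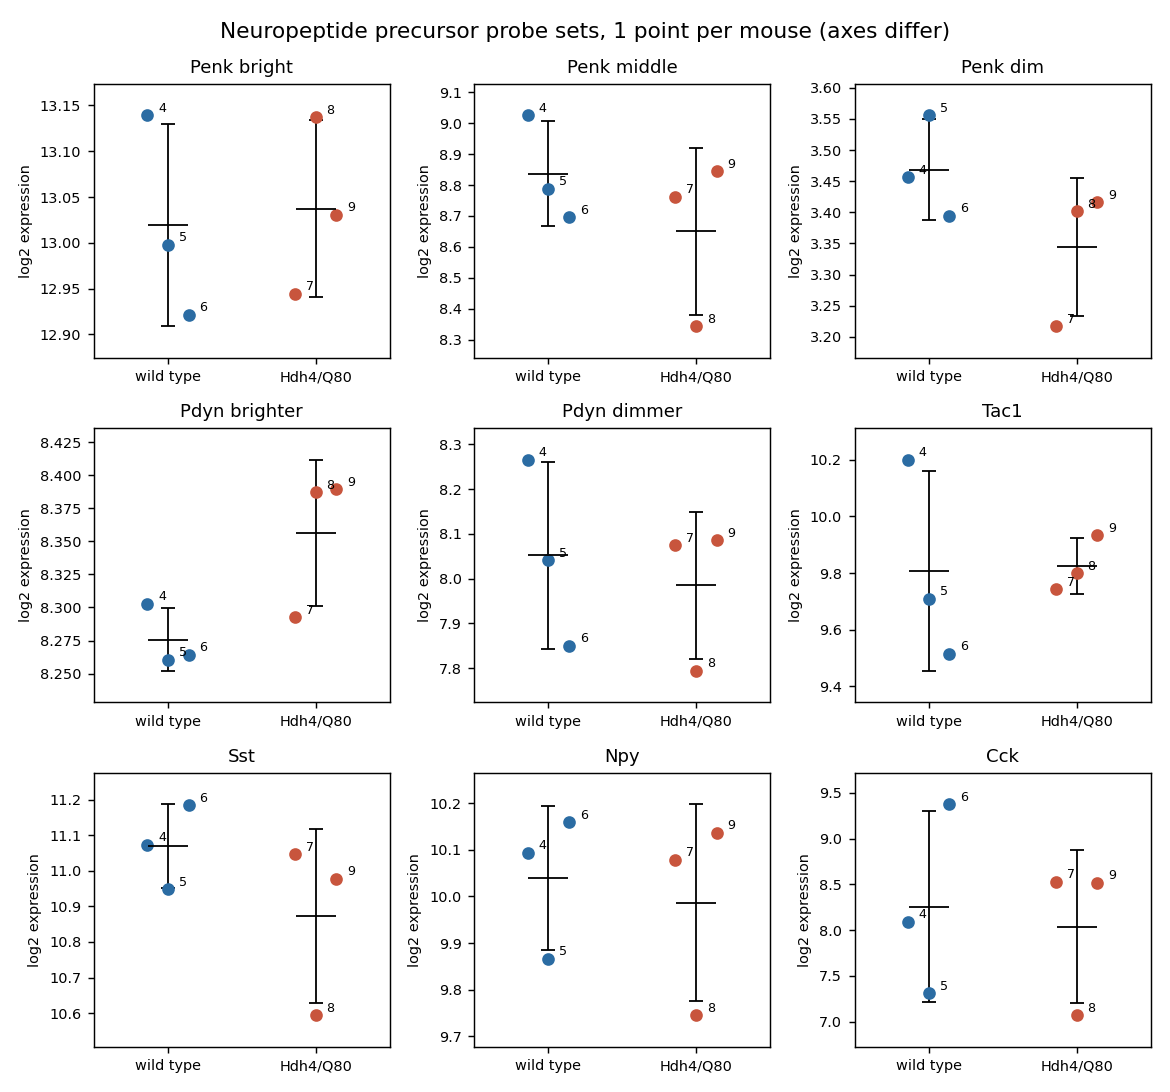
Log2 expression of the 9 probe sets, 1 point per mouse with its number, wild type in blue and Hdh4/Q80 in red; bars are the mean and SD of 3 mice, and the vertical axes differ. The groups overlap in every panel, and Cck spans 7.07 to 9.38 while the brighter Pdyn probe set spans 8.26 to 8.39.

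Facts of the arrays that touch these values are few. Median values of the arrays ran from 7.10 to 7.13, and r between arrays, across probe sets, was 0.990 to 0.998. The array of mutant mouse 8 stood apart from the rest: its mean correlation with the others was 0.992, against 0.995 to 0.997. This mouse was the lowest of the 6 for 5 of the 9 precursor probe sets and the highest for 0, where over all probe sets it was lowest for 33.7% and highest for 28.1%. The gap between the 3′ and 5′ probe sets of beta-actin, a sign of RNA integrity and labelling, was 0.858 in mouse 8 and 0.855 in mouse 9, against 0.566 to 0.730 in the other mice, mouse 7 included. The same gap for Gapdh did not set mouse 8 apart: it was 0.210 there, 0.221 to 0.259 in wild type, 0.116 in mouse 7 and 0.330 in mouse 9. In a whole tissue, fewer cells of a type and less message per cell cannot be told apart.

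Penk, the enkephalin precursor of indirect-pathway neurons, had one of the brightest probe sets of the array, and on it the groups covered nearly the same range. It ranked between 2 and 6 from the top of 12422 in every array; such a rank places a probe set on the scale and does not compare amounts of RNA between genes. It read 13.14, 13.00 and 12.92 in wild-type mice 4, 5 and 6, and 12.94, 13.14 and 13.03 in mutant mice 7, 8 and 9. The highest wild-type and the highest mutant mouse were equal to 2 decimals. On the deposited values the difference was 0.02 (SE 0.083), and its interval (-0.17 to 0.20) reaches at most 1.15-fold. The sign turned without mutant mouse 8 (-0.032) and without wild-type mouse 6 (-0.031). After renewed quantile normalization the difference was 0.12 (SE 0.076), and after cyclic loess 0.10 (SE 0.107). Near the top of the scale an array can compress a change. The middle probe set, at the 84.4th percentile of all probe sets by mean, read 9.03, 8.79 and 8.70 in wild type and 8.76, 8.34 and 8.85 in the mutants. Here 1 mouse, number 8, lay below all others. The difference of -0.19 (SE 0.133, interval -0.48 to 0.11) shrank to -0.03 without that mouse. The dim probe set lay within the lowest 2.66% of every array, with 3.46, 3.56 and 3.39 in wild type and 3.22, 3.40 and 3.42 in mutants, and its difference of -0.12 (SE 0.081) lies near the floor of the scale.

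Apart from mouse 8, the bright and middle Penk probe sets ranked the mice in the same way. In the order of mice 6, 7, 5, 9 and 4 both stand in ascending order, with r = 0.987 over these 5 mice. Over all 6 mice r was -0.09, and with the 2 mice farthest from the median left out it was 0.956. In mouse 8 the 2 probe sets pointed opposite ways: the bright one was 0.11 above its mean over the mice and the middle one 0.40 below. Pdyn showed the same split in the same mouse, 0.07 above on the brighter probe set and 0.22 below on the dimmer. The Pdyn probe sets had r = -0.16 over the 6 mice and 0.358 without mouse 8, and 0.802 with the 2 mice farthest from the median left out. The probe sets of a gene share the RNA of each mouse, so these coefficients are a description and carry no test.

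**Figure D2:**
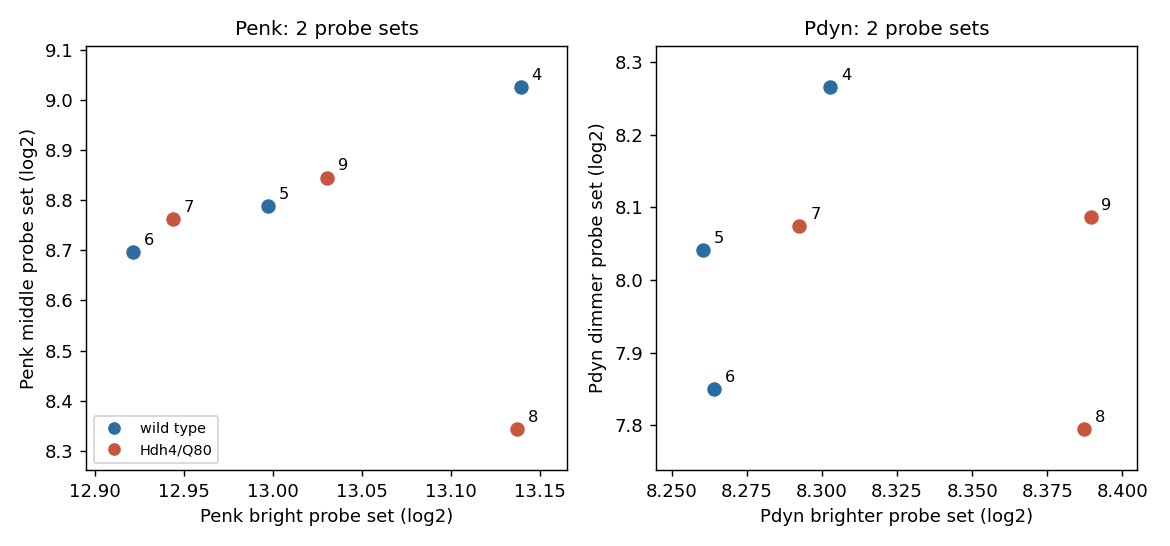
Each panel sets 2 probe sets of 1 gene against each other in log2 units, 1 point per numbered mouse, wild type in blue and Hdh4/Q80 in red. For Penk 5 mice lie along 1 line and mouse 8 lies far below it, at 8.34 on the middle probe set.

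Pdyn, the dynorphin precursor of direct-pathway neurons, had the smallest spread of the 9 probe sets on its brighter probe set and a wide one on the dimmer. On the brighter it read 8.30, 8.26 and 8.26 in wild type and 8.29, 8.39 and 8.39 in the mutants. Mutant mice 8 and 9 lay above every wild type, and mouse 7 lay among them. The difference was 0.08 (SE 0.067, interval -0.07 to 0.23), and the within-group SD, 0.0425, was at the 6.26th percentile of all probe sets. In brightness the brighter probe set lay between the 75.8th and 79.6th percentile on every array and the dimmer between the 66.8th and 75.6th. The dimmer probe set read 8.27, 8.04 and 7.85 in wild type against 8.07, 7.79 and 8.09 in mutants. The difference was -0.07 (SE 0.117), with its SD at the 92.2nd percentile. The signs of the 2 probe sets were opposite, and the second turned to 0.04 without wild-type mouse 4 and to 0.03 without mutant mouse 8.

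Tac1, the substance P precursor of the same neurons, lay between the 92.6th and 96.2nd percentile of brightness on every array. It read 10.20, 9.71 and 9.52 in wild type and 9.74, 9.80 and 9.93 in Hdh4/Q80 mice. The 3 wild types spanned 1.61-fold and bracketed all the mutants, which spanned 1.14-fold. The difference was 0.02 (SE 0.149, interval -0.32 to 0.35). Its within-group SD (0.259) was larger than that of 98.3% of probe sets. Wild-type mouse 4 was the highest of the 6 mice for Tac1, for the bright and middle Penk probe sets and for the dimmer of Pdyn. Without mouse 4 the Tac1 difference was 0.21, and without wild-type mouse 6 it was -0.13. Among projection neuron markers, mouse 4 was the highest of the 6 for the D2 receptor Drd2 (9.90) and the phosphodiesterase Pde1b (12.31). It was the lowest of the 6 for Rgs9 (5.50) and Chrm4 (7.25). Mouse 4 also had the highest mean of the 13 measured projection neuron markers: 0.13 above the mean of the 6 mice, where mouse 8 was 0.14 below. Over the 6 mice Tac1 correlated with that mean at r = 0.655 (exact permutation p = 0.143, adjusted p = 0.368 over 48 relations; rho = 0.429, exact permutation p = 0.419), at 0.928 without mouse 8 and at -0.05 without the 2 mice farthest from the median, so the pooled value rests on few mice. Penk gave r = 0.0906 (exact permutation p = 0.851, adjusted p = 0.919; rho = 0.371, exact permutation p = 0.497), 0.919 without mouse 8 and 0.733 without the 2 farthest mice.

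Of the interneuron peptides, Sst had the largest ratio of difference to error among the 9 probe sets and still overlapped. It read 11.07, 10.95 and 11.18 in wild type and 11.05, 10.59 and 10.98 in the mutants. Mice 7 and 9 lay within the wild-type range, and mouse 8 lay below all. The difference of -0.20 (SE 0.118, interval -0.46 to 0.07; adjusted p = 0.857 by limma) became -0.06 without mouse 8. Npy read 10.09, 9.87 and 10.16 in wild type and 10.08, 9.74 and 10.14 in mutants. The difference was -0.05 (SE 0.115, interval -0.31 to 0.20). Again 2 mutants lay inside the wild-type range and mouse 8 below it; without mouse 8 the sign turned (0.07). Sst lay at the 97.9th to 98.7th percentile of brightness and Npy at the 94.8th to 96.2nd. Nos1, the enzyme that marks the same interneurons, read 6.48, 6.86 and 6.75 in wild type and 6.86, 6.45 and 6.49 in mutants. It was low in wild-type mouse 4 and mutant mouse 9, where Sst and Npy were not, as well as in mouse 8.

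Cck had the widest spread between mice of the 6 genes, and the second widest of all 12422 probe sets. It read 8.09, 7.31 and 9.38 in wild-type mice 4, 5 and 6, and 8.52, 7.07 and 8.52 in mutant mice 7, 8 and 9. The wild types alone spanned 4.18-fold and the mutants 2.74-fold, so each group held both high and low mice. Its brightness moved with this from the 49.2nd percentile in mouse 8 to the 91.2nd in mouse 6. The within-group SD was 0.946, against a median of 0.099 over all probe sets. The difference between groups, -0.22 (SE 0.497), had an interval of -1.33 to 0.89, which runs from 2.52-fold lower to 1.85-fold higher. This SE is limma's moderated one, drawn toward that of a typical probe set. For so variable a probe set it is smaller than the gene's own spread would give, and the interval narrower. With trended, robust moderation the SE was 0.690. It reversed to 0.34 without wild-type mouse 6 and to 0.26 without mutant mouse 8, and was -0.69 without wild-type mouse 5. The other 5 of the 6 widest probe sets, looked up after the Cck values were seen, were those of Ttr (transthyretin, the main product of choroid plexus), Fos, Kl, Mrm3 and Tbr1.

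**Figure D3:**
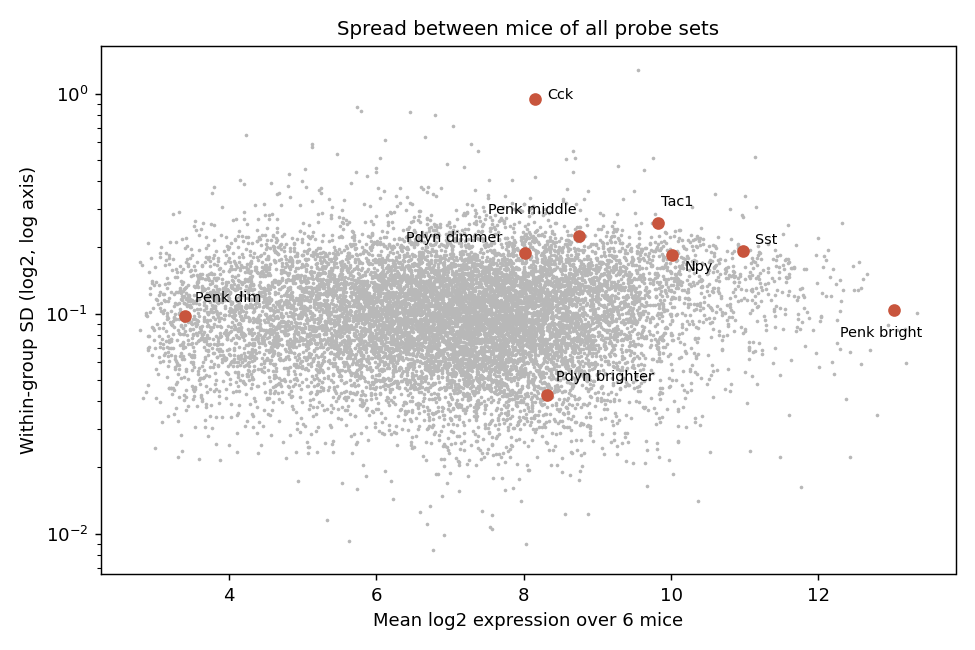
Within-group SD in log2 units (log axis) against mean log2 expression for all 12422 probe sets (grey) and the 9 precursor probe sets (red). Cck lies at 0.946, above all other probe sets but 1, and the brighter Pdyn probe set at 0.0425 lies below most.

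**Figure D4:**
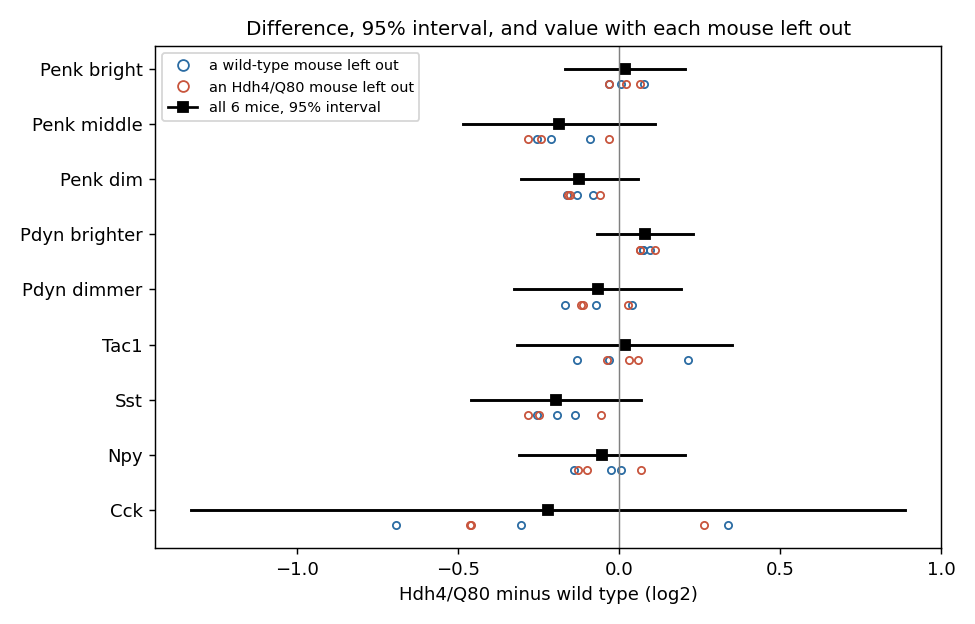
Hdh4/Q80 minus wild type on the log2 scale for the 9 probe sets: the square is the difference over 6 mice, the line its 95% interval from limma, and the open circles the difference with 1 mouse left out (blue, a wild type; red, a mutant). All intervals cross 0, and the Cck circles run from -0.69 to 0.34.

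Cck varied from mouse to mouse with 2 markers of cortical projection neurons. Tbr1, a transcription factor of deep-layer cortical neurons, read 6.83, 6.10 and 8.04 in wild type and 6.96, 5.95 and 6.92 in the mutants. Fezf2, which specifies subcerebral cortical neurons, read 6.71, 6.63 and 6.87 in wild type and 6.80, 6.58 and 6.75 in mutants. Both placed the 6 mice in exactly the order of Cck. Over the 6 mice Cck correlated with Tbr1 at r = 0.980 and with Fezf2 at r = 0.988 (exact permutation p = 0.00139 each, the smallest that 6 mice allow, adjusted p = 0.00833 over 12 markers; rho = 1 for both, exact permutation p = 0.00278). With the 2 mice farthest from the median Cck value left out, r was 0.973 and 0.961. Of the 19 listed cortical markers 12 were measured; 10 had r above 0 with Cck and 5 had r above 0.8, the other 3 being Nr4a2 (0.899), Mef2c (0.902) and Neurod2 (0.822), whose adjusted permutation p was 0.0583, 0.0583 and 0.100 in exact tests. Camk2a, an abundant kinase of excitatory neurons, had a lower coefficient (r = 0.349, exact permutation p = 0.478; rho = 0.429, exact permutation p = 0.419). Nrgn and Neurod6 had r = 0.659 and 0.648, Cplx1 and Cux2 0.323 and 0.289, and Neurod1 and Rasgrf2 -0.0048 and -0.26. With the 2 farthest mice left out, r was 0.984 for Neurod1, 0.943 for Neurod6 and 0.928 for Nr4a2. It was then 0.803 for Mef2c and 0.556 for Neurod2. For the others it was then below 0: Cux2 (-0.16), Nrgn (-0.24), Camk2a (-0.50), Cplx1 (-0.69) and Rasgrf2 (-0.81). This family of 12 was computed after the Cck values were seen.

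The mean of the 12 cortical markers, taken as deviations from each gene's mean, ran from -0.08 to 0.27 in wild type and from -0.22 to 0.11 in the mutants, so it too overlapped between the groups. Its correlation with Cck was r = 0.922 (exact permutation p = 0.00972, adjusted p = 0.217 over 48 relations of 6 precursors with 8 marker lists; rho = 1, adjusted p = 0.133; r = 0.666 with the 2 farthest mice left out). RMA gives no detection call, so no marker can be called absent; 3 of the 12 were dim, meaning below the lower quartile, among them Neurod1 and Neurod6. How much of the Cck signal came from which cells was not tested.

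**Figure D5:**
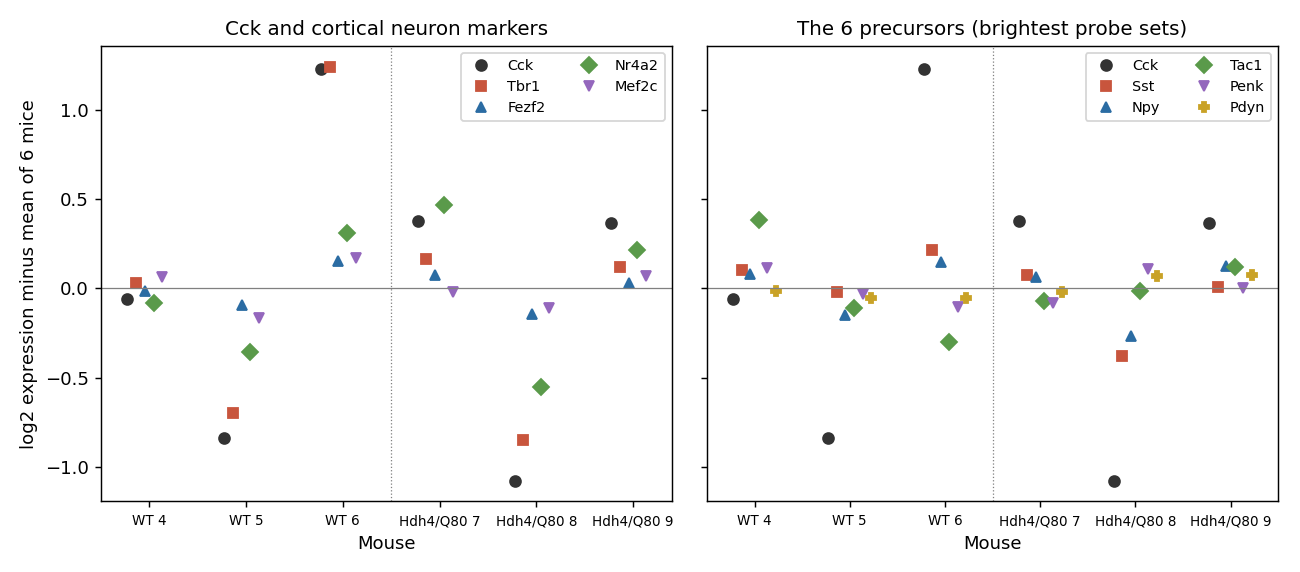
Log2 expression minus the mean of the 6 mice. Left, Cck and 4 of the 5 cortical markers whose r with Cck was above 0.8. Right, the 6 precursors on their brightest probe sets. Points are offset sideways for legibility and mice have no order. Cck and Tbr1 are high in wild-type mouse 6 and low in wild-type mouse 5 and mutant mouse 8, and Sst and Npy are also lowest in mouse 8.

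Cck, Sst and Npy had high coefficients with each other, while Penk, Pdyn and Tac1 had coefficients with them between -0.67 and 0.09. Over the 6 mice r was 0.916 for Npy with Cck, 0.883 for Sst with Npy and 0.824 for Sst with Cck (exact permutation p = 0.00556, 0.0111 and 0.0375; adjusted p = 0.0833, 0.0833 and 0.188 over 15 pairs), each with rho = 0.829 (exact permutation p = 0.0583). Without mouse 8 these became 0.884, 0.662 and 0.812, and with the 2 farthest mice left out 0.764, 0.592 and 0.504. Penk and Tac1 correlated at 0.763 (exact permutation p = 0.0708, adjusted p = 0.266; rho = 0.886, exact permutation p = 0.0333), at 0.956 without mouse 8 and at 0.857 without the 2 farthest mice. Penk had negative coefficients with Sst, Npy and Cck (-0.61, -0.47 and -0.65). Of the 15 pairs 0 passed after adjustment.

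The genes most like each precursor across the 6 mice were sought among genes brighter than the median whose range was at least 0.3, 2028 or 2029 candidates in each search. With so few mice a high coefficient is easily had: 283 candidates passed 0.9 with Sst, 121 with Npy, 34 with Cck, 19 with Tac1, 18 with Pdyn and 6 with Penk. Penk was most like Kdm3a (r = 0.984) and Mrps33 (0.970), and Pdyn like Cd59b (0.984) and Irak1 (0.963). Tac1 was most like Tomm70a (0.993) and Pbx3 (0.988), a homeobox gene that read 9.35, 8.72 and 8.48 in wild type and 8.69, 8.73 and 8.95 in mutants. Sst was most like Septin7 (0.995) and Dkk3 (0.991), Npy like G3bp2 (0.990) and Coa6 (0.981), and Cck like Gng3 (0.993), a neuronal G protein subunit, and Atxn7l3 (0.979). These are descriptions of 6 mice, chosen as the highest values, and carry no test.

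The receptors for these peptides gave no called difference. Of 19 listed receptors 18 were measured, and 13 lay above 0 and 5 below (median 0.06, against -0.0072 over all genes), with 0 passing the test at any level used: 0 of 18 had an unadjusted p under 0.05. The enkephalin and dynorphin receptors Oprm1, Oprd1 and Oprk1 differed by 0.08, -0.03 and 0.08, and the related nociceptin receptor Oprl1 by 0.02; Oprm1 was dim (4.94 ± 0.0085 in wild type and 5.02 ± 0.064 in mutants, mean log2 ± SD, n = 3). The tachykinin receptors Tacr1 and Tacr2 differed by 0.05 and 0.07. Among somatostatin receptors, Sstr2 read 7.70 ± 0.059 in wild type and 7.83 ± 0.043 in mutants. Its groups did not overlap, nor did those of Oprm1, where 11.7% of all probe sets did not. The Sstr2 difference of 0.13 (SE 0.069) did not pass limma's test (adjusted p = 0.857), and its dimmer probe sets gave 0.31 and -0.06. Sstr1, Sstr3, Sstr4 and Sstr5 differed by 0.07, -0.04, 0.07 and 0.05. The neuropeptide Y receptors Npy1r, Npy2r, Npy4r, Npy5r and Npy6r differed by -0.11, 0.06, 0.13, -0.02 and 0.13, with 0.19 on a dim second probe set of Npy1r. The cholecystokinin receptors Cckar and Cckbr differed by 0.09 and -0.03. Of the 18 receptors 4 were dim on their brightest probe sets: Oprm1, Npy5r, Npy6r and Cckar.

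Enzymes that make and destroy the peptides gave no called difference. Of 28 listed 23 were measured, with 9 above 0 and 14 below and a median of -0.01; 0 passed the adjusted test, and 2 had an unadjusted p under 0.05 (1 higher, 1 lower), where 5.1% of all probe sets did. These were Pam, which adds the carboxy-terminal amide that substance P, neuropeptide Y and cholecystokinin need (6.34 ± 0.035 against 6.52 ± 0.088, a difference of 0.18, SE 0.072), and Prep, a peptidase that cuts substance P after proline (6.97 ± 0.088 against 6.80 ± 0.040, -0.18, SE 0.072; 0.0020 on a dim probe set). Pcsk1n, an inhibitor of a prohormone convertase, read 11.56 ± 0.052 and 11.37 ± 0.224. None passed limma's test (adjusted p = 0.857 each). The groups of Pam and Prep did not overlap on their brightest probe sets, where 11.7% of all probe sets did not. Of 11 measured dense-core vesicle proteins 5 were above 0 and 6 below (median -0.02) and 0 passed. Syt4, a vesicle synaptotagmin, differed by 0.29 (SE 0.122). Chga, chromogranin A, differed by -0.20 (SE 0.105), and by -0.06 on a dimmer probe set. Sytl4 differed by 0.12 (SE 0.069) without overlap of its groups, and by 0.18 on a dim probe set.

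Other peptide precursors outside the 6 also gave 0 calls among 25 measured of 40 listed, with 16 above 0 and 9 below (median 0.03). The smallest p was that of Edn1, the endothelin precursor of vessels, which read 8.11 ± 0.023 in wild type and 8.41 ± 0.146 in mutants, without overlap. The difference was 0.30 (SE 0.083; adjusted p = 0.857 by limma), and 0.16 on a dim second probe set. Ppy, pancreatic polypeptide, and Gip, a gut hormone, differed by 0.12 and 0.15. The groups of Ppy did not overlap either, where 11.7% of all probe sets did not. In the list of cyclic AMP and activity-linked transcription, which holds transcription factors and genes that activity induces, such as Bdnf and Dusp1, 15 of 17 measured genes lay below 0 (median -0.10) and 0 passed. Its smallest p was that of Egr1 (10.07 ± 0.032 against 9.71 ± 0.147, -0.36, SE 0.084; 0.32 on a dimmer probe set), followed by Nr4a1 (-0.50, SE 0.228) and Atf4 (-0.14, SE 0.082). None of these passed limma's test (adjusted p = 0.857 each), though the groups of Egr1 did not overlap on its brightest probe set.

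Markers of other cells and of neighbouring tissue give the setting of these values. The 13 projection neuron markers had a median of -0.06 (4 above 0, 9 below) and the 12 interneuron markers other than the precursors 0.02 (7 above, 5 below). The 12 cortical markers had -0.07 (3 above, 9 below), and the 13 markers of hypothalamus, thalamus and pallidum 0.02 (9 above, 4 below). All 8 choroid plexus and ependyma markers lay above 0 (median 0.24, led by Ttr). The mean of this list was 0.60 and 0.36 above the average of the mice in mutant mice 9 and 8, 0.14 above in wild-type mouse 6 and -0.40 to -0.34 in the other 3. The astrocyte, oligodendrocyte and microglia lists had medians of -0.11 (2 above, 5 below), -0.06 (2 above, 7 below) and -0.11 (1 above, 10 below). At an unadjusted p under 0.05 in limma's test, 4 of 11 microglia and 2 of 9 oligodendrocyte genes were lower. The microglia genes were C1qa, C1qb, C1qc and Tyrobp. On their brightest probe sets their groups did not overlap, and mouse 8 was the lowest mouse for each. A dimmer C1qb probe set went the other way (0.24). Of 12 interneuron markers 2 were higher at this level, Gad1 (0.26) and Htr3a (0.20). The astrocyte and cortical lists each had 1 higher and 1 lower. The remaining lists had 0. Over all probe sets 2.9% were higher and 2.21% lower. In none of these lists did a gene pass over all probe sets, and none of the 48 relations between these 8 lists and the precursors passed after adjustment. The interneuron list includes Gad1 and Gad2, and whether its mean tracks interneuron content was not tested. With the interneuron list r was -0.74 for Sst and -0.72 for Npy (exact permutation p = 0.0583 and 0.0903, adjusted p = 0.273 and 0.319). Their rho was -0.83 and -0.89 (exact permutation p = 0.0583 and 0.0333). With the 2 farthest mice left out, r was -0.59 and -0.50. Pdyn had r = -0.32 with the projection neuron list (exact permutation p = 0.568), and 0.712 with the 2 farthest left out. Several coefficients were as large as that of Cck with the cortical list or nearly so. Sst had r = 0.944 with the microglia list (exact permutation p = 0.0181, adjusted p = 0.217; rho = 0.657, exact permutation p = 0.175), which was -0.09 with the 2 farthest mice left out. With the astrocyte list r was 0.902 for Sst and 0.847 for Npy (exact permutation p = 0.0458 and 0.0181, adjusted p = 0.273 and 0.217; rho = 0.486 and 0.771, exact permutation p = 0.356 and 0.103), and -0.55 and 0.960 with the 2 farthest mice left out. With the cortical list r was 0.848 for Sst and -0.83 for Penk (exact permutation p = 0.0361 and 0.0486, adjusted p = 0.273 each; rho = 0.829 and -0.71, exact permutation p = 0.0583 and 0.136), and 0.463 and -0.90 with the 2 farthest left out. Tac1 had r = -0.84 with the hypothalamic, thalamic and pallidal list (exact permutation p = 0.0250, adjusted p = 0.240; rho = -0.77, exact permutation p = 0.103; -0.62 with the 2 farthest left out). Pdyn had r = -0.80 with the microglia list (exact permutation p = 0.0139, adjusted p = 0.217; rho = -0.83, exact permutation p = 0.0583; -0.70 with the 2 farthest left out).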

How the data were processed

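The authors deposited log2 expression values per probe set; the submitters' processing notes name RMA (robust multi-array average) and the affy package, without a version and without saying which arrays were processed jointly. The method subtracts background, brings arrays to a common distribution and summarises probes on the log2 scale. Of 12488 probe sets 66 controls were left out of the tests. Genes were named from a platform annotation, using the 10833 probe sets with 1 symbol; the 6 precursors had the same symbols in the gene table of mouse assembly GRCm38.p6.

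Groups were taken from sample titles. Hdh4/Q80 was compared with wild type in limma 3.58.1 (R 4.3.3; lmFit and eBayes, 4 residual and 5.81 prior degrees of freedom) over 12422 probe sets with Benjamini-Hochberg adjustment and a threshold of 0.05; the fit was tested on simulated data. A gene outside the 6 is represented by its brightest probe set. Relations between mice used exact permutation of pairings over all orders of the 6 mice (two-sided). Named were all probe sets of the 6 genes, all listed receptors, up to 3 genes of smallest p in each list on peptides and transcription, and the 2 genes most like each precursor; other genes named were chosen after their values were seen. Members and lists were chosen with earlier results of these data known. The cortical markers were set against Cck singly after the Cck values were seen. Each array is 1 mouse by the design text, p-values measure the spread between these mice, and no batch is labelled. With 6 arrays, their number limits the precision.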

Additional observations from a re-analysis of the deposited data

How the results depend on the processing

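The 9 precursor differences were recomputed after leaving out the dimmest 40% of probe sets, with each of 3 renewed normalizations (median, quantile, cyclic loess), with eBayes set to trend and robust, with array weights, by gene instead of probe set, and without each mouse. In all of these 0 of the precursor values, and in all but the fit by gene, where it was not counted, 0 of all probe sets, had an adjusted p under 0.05 in limma's test, and of the recomputed precursor values 16 changed sign and 97 did not. The sign turned with array weights for bright Penk (-0.035), dimmer Pdyn (0.069), Npy (0.015) and Cck (0.0021), and with the mean of the probe sets for Penk (-0.098). For bright Penk quantile normalization gave 0.123 and cyclic loess 0.101, against 0.018 on the deposited values. Both lie above its values with 1 mouse left out. Without 1 mouse at a time the difference ran from -0.032 to 0.078 for bright Penk, -0.284 to -0.033 for middle Penk, -0.161 to -0.060 for dim Penk, 0.064 to 0.113 for brighter Pdyn, -0.169 to 0.039 for dimmer Pdyn, -0.13 to 0.21 for Tac1, -0.283 to -0.057 for Sst, -0.140 to 0.068 for Npy and -0.69 to 0.34 for Cck. It changed sign for bright Penk without wild type 6 (-0.031) or mutant 8 (-0.032), for dimmer Pdyn without wild type 4 (0.039) or mutant 8 (0.028), for Tac1 without wild type 5 (-0.033), wild type 6 (-0.13) or mutant 9 (-0.037), for Npy without wild type 6 (0.0070) or mutant 8 (0.068) and for Cck without wild type 6 (0.34) or mutant 8 (0.26). Of all probe sets, 360 higher and 274 lower had an unadjusted p under 0.05; array weights gave 1106 and 706, leaving out the dimmest probe sets gave 142 higher, and leaving out 1 mouse gave 144 to 599 higher and 107 to 554 lower. Array weights brought 1 precursor probe set, dim Penk, to an unadjusted p under 0.05 in limma's test (-0.22). The weights were 0.816, 1.16 and 1.85 for wild-type mice 4, 5 and 6. For mutant mice 7, 8 and 9 they were 6.19, 0.228 and 0.405. The weighted mutant mean therefore rests mainly on mouse 7, which was the lowest mouse on dim Penk (3.22). Causes of the shifts beyond this weighting were not tested. No paired analysis was possible because the groups share no replicate number. Depth cannot be assessed from RMA values, and the bright and dim Penk probe sets lie at the ends of the scale.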
